A study of Drosophila melanogaster with 8 samples.

Results

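Heat shock proteins and chaperones are covered here by 12 genes of the 9826 that the authors' gene tables place beside a Dam-RNase H1 peak in wing imaginal discs of *Drosophila melanogaster*. They were chosen by name, as genes listed in either table whose symbol begins with Hsp or Hsc and a digit, with DnaJ, with CCT and a digit or with Tcp-1 (or Tcp1), together with *Hsf* and leaving out *Hsc70-3*. They are *Hsf*, *Hsp83*, *Hsp70Ab*, *Hsc70-1*, *Hsc70-4*, *DnaJ-1*, *Hsp27*, *Hsp67Ba*, *Hsp67Bc*, *Hsp60B*, *Tcp-1eta* and *Tcp-1zeta*. The current RefSeq table holds 36 genes on the chromosome arms whose symbols match the same pattern, so 24 others are annotated but listed under no matching name in the gene tables, and these were followed in the full peak lists.

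The assay was Targeted DamID, which uses weak expression of the bacterial methylase Dam to mark adenines of GATC sites close to where the enzyme sits. Fused to RNase H1, an enzyme that binds and cuts the RNA of RNA:DNA hybrids, it marks chromatin that the fusion contacted. The 4 groups were nub>Dam and nub>Dam-RNase H1 (control), and the same pair in animals carrying ecd1, a temperature-sensitive allele of the gene *ecdysoneless*; each genotype had 3 libraries of the fusion and 1 of Dam alone, 8 in all. In all groups *nub*-Gal4, which is active in the wing pouch rather than in every disc cell, drove the UAS-LT3 constructs, heat-sensitive tub-Gal80 kept them off at 25 °C, and a shift on day 6, to 29 °C and lasting 24 h, switched them on and disabled the ecd1 protein before discs of third-instar larvae were dissected on day 7. Every disc therefore had the same 24 h at 29 °C, and an effect of that temperature on these genes cannot be told apart from anything else the groups share.

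Heat shock genes are controlled by heat shock factor, a transcription factor that forms trimers under stress and binds short repeated elements upstream of its targets. The products prevent or repair misfolding: small heat shock proteins hold unfolded chains, Hsp70 and its J-domain partners bind and release them, Hsp90 matures signalling proteins, and the ring-shaped chaperonins Hsp60 (mitochondria) and CCT (cytosol) fold proteins in a cavity. In *Drosophila* the Hsp70 genes are known for paused RNA polymerase and for very rapid induction, and several small heat shock genes also respond to the steroid ecdysone in late larvae.

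The files hold 1 peak list and 1 gene table per genotype, and 1 table of regions higher in each genotype, so the libraries cannot be seen apart. No value below has a replicate error or a known depth, and no difference between genotypes could be tested here. Peak height is the authors' score, with no stated scale or log base. The control and ecd1 lists were made separately, and heights set side by side are descriptions. All 11 wing disc genes of a marker list (such as *nub*, *vg* and *sd*) were listed with a peak in both genotypes, and none of 3 fat body genes was. Of 17 genes marking muscle precursors, blood cells, trachea, fat body, neurons and glia, 7 were listed in control and 11 in ecd1. Control and ecd1 listed 3 and 3 of 4 muscle precursor genes and 2 and 3 of 3 tracheal genes. For blood cells they listed 1 and 3 of 4, and for neurons and glia 1 and 2 of 3. The share of all annotated genes that are listed is not given here, so the marker counts stand without a matched comparison. By another count, 62.2% of the 13922 annotated protein-coding genes had a peak of either genotype within 1000 bp. A peak is not a measure of expression, and the part of other cell types in the results was not tested.

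Of the 12 genes, 11 were listed in control discs (91.7%), 10 in ecd1 discs (83.3%) and 9 in both (75%). Among all 9826 genes with a listed peak the shares were 84.3%, 89.1% and 73.4%, so sharing between genotypes was close to that of genes in general. *Hsf* and *Tcp-1zeta* were listed in control discs only, as were 10.9% of all genes, and *Hsc70-1* in ecd1 discs only, as were 15.7%. The listed heights had a median of 1.04 in control (range 0.49 to 1.47) and 1.27 in ecd1 (0.55 to 2.15), where the medians over all listed genes were 0.95 and 1.21. With each distinct peak counted once, the members' medians were 0.99 in control and 0.94 in ecd1, against 0.94 and 1.18 over all distinct listed peaks, so the side of the ecd1 median depends on the peak that *Hsp27* and *Hsp67Ba* share. Of the 9 genes in both tables, 8 had the larger height in ecd1 and *Hsp83* had 0.94 in both; over all 7212 such genes 79.7% had the larger height in ecd1. The listed peaks of the 2 genotypes overlapped for all 9, against 80.4% of the 7212.

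**Figure D1:**
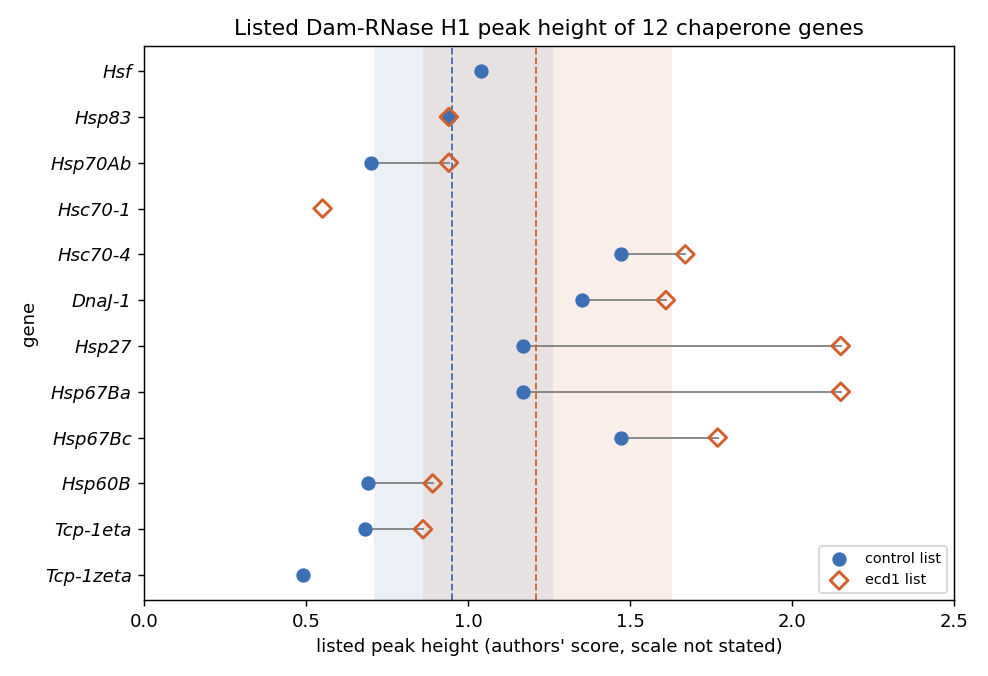
Listed peak height (x axis, the authors' score) of each of the 12 genes (y axis), with filled circles for the control list and open diamonds for the ecd1 list; dashed lines are the medians over all listed genes (0.95 in control, 1.21 in ecd1) and shaded bands their quartiles. *Hsp27* and *Hsp67Ba* share a peak and sit farthest right in ecd1 at 2.15, while the 2 marks of *Hsp83* coincide at 0.94.

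The authors' deposited table of regions higher in ecd1 lists 5 of the 12 genes (41.7%), namely *Hsc70-1*, *Hsp27*, *Hsp67Ba*, *Hsp83* and *DnaJ-1*, where 57.1% of all genes with a listed peak are in it. The authors' deposited table of regions higher in control lists *Hsp83* and *Tcp-1zeta* (16.7%), against 22.1% of all genes. In neither direction does the count stand above that of genes in general. The other 6 genes, *Hsf*, *Hsp70Ab*, *Hsc70-4*, *Hsp67Bc*, *Hsp60B* and *Tcp-1eta*, are in neither table; 33.1% of all genes are in neither.

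*Hsf* (FBgn0001222, 2R:18130303-18134634) encodes the heat shock factor itself. Its control peak (2R:18133312-18135856) had a height of 1.04 and an FDR of 0.00465, and covered 1323 bp of the right end of the gene. The ecd1 list has no peak over *Hsf*; its nearest, of height 1.01 (2R:18127694-18129293), lies 1010 bp from the other end. The authors' deposited tables list no region over *Hsf* in either direction. The listing of *Hsf* in control discs alone is therefore no called difference between the genotypes.

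*Hsp83* (FBgn0001233, 3L:3192969-3197059), the *Drosophila* Hsp90 gene, was the single member with regions in both directions. In control discs peaks of height 0.53 (3L:3194703-3195631) and 0.94 (3L:3196359-3199348) lay inside the gene and across its right end. In ecd1 discs the corresponding peaks had heights of 0.94 (3L:3195418-3196527) and 1.05 (3L:3197005-3198019). The equal listed heights of 0.94 therefore belong to different stretches, which overlap by 169 bp. Of the control peak of 0.94, 701 of 2990 bp lie on *Hsp83*, and of the ecd1 peak of 1.05, 55 of 1015 bp. The control peak of 0.94 is listed for *CG32271* and *gry* as well. The ecd1 peak inside the gene lies in large part where the control list has no peak, and the control peak across the end runs over the gap between the 2 ecd1 peaks. In the authors' deposited table a region of 0.41 lies inside the gene and is higher in ecd1 (3L:3195018-3195502, FDR 0.0041). All 485 bp of it lie on the control peak of 0.53 and 85 bp on an ecd1 peak. The authors' deposited table for the other direction gives one of 0.61 near the right end as higher in control (3L:3196435-3197005, FDR 0.00614). All 571 bp of that one lie on the control peak and 94 bp on ecd1 peaks. The medians over all genes in the authors' deposited tables are 0.75 for regions higher in ecd1 and 0.53 for regions higher in control. Regions of both directions were listed for 12.3% of all genes.

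**Figure D2:**
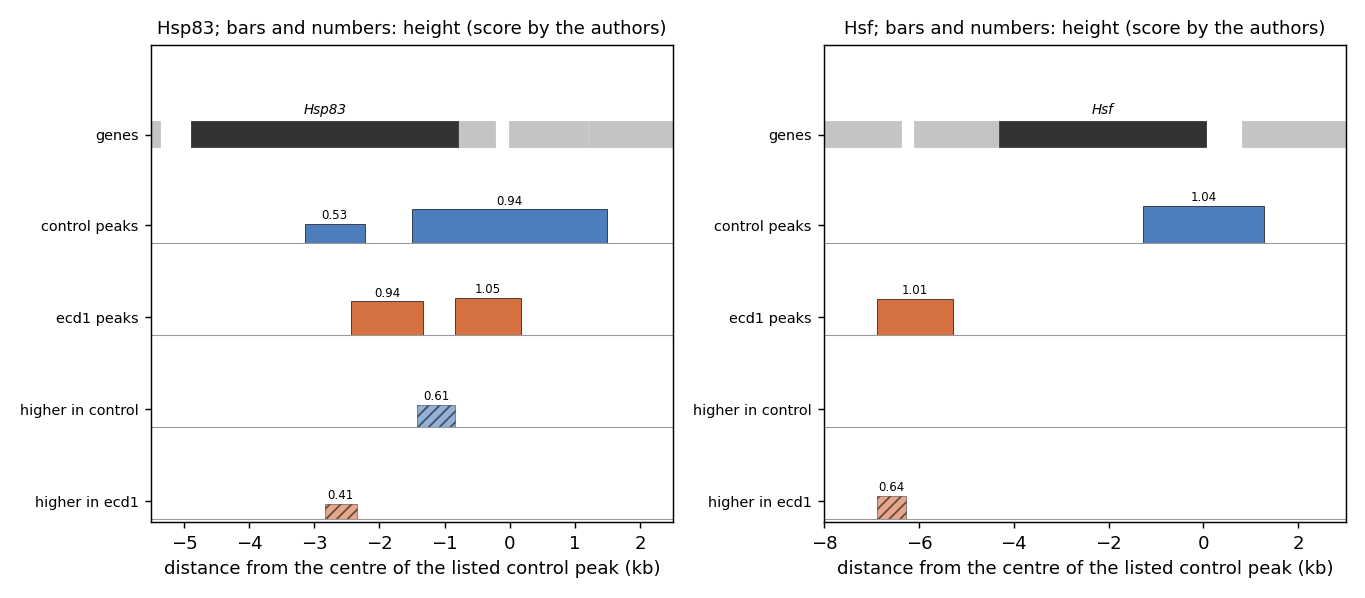
Maps of *Hsp83* (left) and *Hsf* (right): x axes give the distance in kb from the centre of the listed control peak, dark boxes the named gene and grey boxes its neighbours, filled bars the peaks and hatched bars the regions called higher in a genotype, with bar height and number giving the authors' height. At *Hsp83* the control peaks of 0.53 and 0.94 and the ecd1 peaks of 0.94 and 1.05 are offset from each other; at *Hsf* the control peak of 1.04 has no ecd1 peak beneath it.

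Of the small heat shock genes, the 6 that match the name pattern sit in a row at cytological position 67B on arm 3L (3L:9371511-9385694). The genes *CG4456* and *CG4461* and the non-coding *asRNA:CR43481* lie in the same row and were not counted. *Hsp22*, *Hsp23*, *Hsp26* and *Hsp27* are heat-induced genes, and *Hsp67Bc* is related to mammalian HSPB8. Over these 14184 bp both genotypes had 2 peaks with the same ends in each list, which covered 58% of the row. The first (3L:9371970-9373397) lies over the adjoining ends of *Hsp67Bc* and *Hsp22* and was 1.47 high in control and 1.77 in ecd1. The second (3L:9378897-9385756) is 6860 bp wide and runs from *Hsp67Ba* over the whole of *Hsp23* and *Hsp27*, with heights of 1.17 in control and 2.15 in ecd1. At 6860 bp it exceeded the width of 97.4% of peaks in the control list and 98.5% in the ecd1 list. The gene tables list it for *Hsp27*, *Hsp67Ba* and the non-coding genes *CR43482* and *CR43483*, and not for *Hsp23*, although that gene lies inside it. *Hsp26*, between the 2 peaks, had none within 1000 bp in either genotype, the nearer being 1470 bp away.

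The wide peak showed the largest difference in height among the 9 genes listed in both genotypes. Its ecd1 height exceeded its control height by 0.98, more than the difference at 95.7% of the 1801 peaks with the same ends in both lists, where the median difference was 0.28 (quartiles 0.09 and 0.53). The members had 5 such peaks, at *Hsp27* with *Hsp67Ba*, *Hsp67Bc*, *DnaJ-1*, *Hsc70-4* and *Tcp-1eta*, and all 5 were taller in ecd1, as were 85.0% of the 1801. The other 4 differences ran from 0.18 at *Tcp-1eta* to 0.30 at *Hsp67Bc*. A lower height than that of *Hsp27* and *Hsp67Ba* was listed for 93.1% of the genes in ecd1 and for 68.1% in control. The authors' deposited table divides the change within the peak: a region of 1.43 that spans *Hsp27* (3L:9383919-9385756) and a region of 0.76 over *Hsp23* and the right part of *Hsp67Ba* (3L:9378897-9382857) are given as higher in ecd1. The authors' deposited table assigns the former to *Hsp23* as well, from 1154 bp away. *Hsp67Bc* and *Hsp22* have no region over them in the authors' deposited tables, and the nearest one in the authors' deposited table for ecd1, of 0.78, lies 726 bp from *Hsp67Bc* (3L:9369829-9370785). *Hsp27* and *Hsp67Ba* are thus counted as separate genes while sharing 1 peak, and the 12 genes rest on 10 control peaks and 9 ecd1 peaks.

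**Figure D3:**
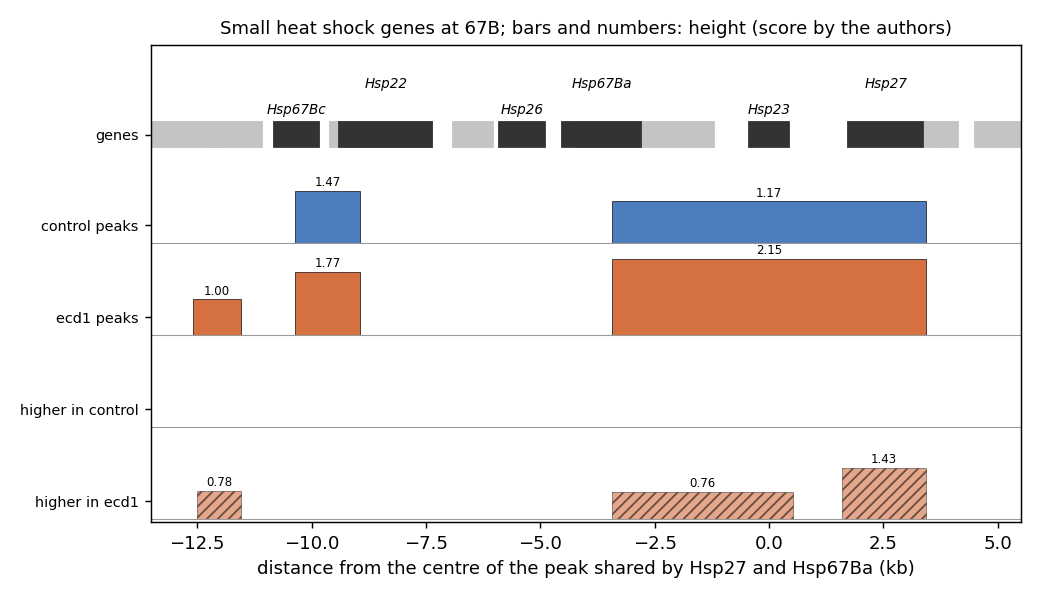
Map of the 67B row of small heat shock genes: the x axis gives the distance in kb from the centre of the peak shared by *Hsp27* and *Hsp67Ba*. Dark boxes are the 6 small heat shock genes that match the name pattern, and grey boxes all other genes. Filled bars are the peaks and hatched bars the regions called higher in a genotype, with bar height and number giving the authors' height. Over the row both lists hold the same 2 intervals, with heights of 1.47 and 1.17 in control and 1.77 and 2.15 in ecd1, and the called regions of 0.76 and 1.43 lie within the second.

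The constitutive Hsp70-family genes differed among themselves. *Hsc70-4* (FBgn0266599, 3R:15242687-15246614), which encodes the main cytosolic Hsc70 and also serves in clathrin uncoating, had 1 peak with the same ends in both lists (3R:15241359-15244558), over 47.7% of the gene. Its heights of 1.47 in control and 1.67 in ecd1 exceed those of 86.8% and 77.0% of the listed genes. The peak is shared with the neighbouring gene *tefu*, and the authors' deposited tables hold no region over *Hsc70-4*. They place one of 0.41 as higher in ecd1 at 716 bp outside the gene (3R:15247330-15247664, the authors' deposited table for ecd1).

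*Hsc70-1* (FBgn0001216, 3L:13974061-13977761) lay at the other end of the scale. A narrow ecd1 peak of 306 bp (3L:13973926-13974231) had a height of 0.55 and an FDR of 0.00844, with 5.21% of the ecd1 genes lower, and the nearest control peak was 7538 bp away. The authors' deposited table has 0.58 in the middle of the gene as higher in ecd1 (3L:13975672-13976466, FDR 0.00903), at a place where neither list has a peak. A second region of 0.38 in the authors' deposited table lies on the narrow ecd1 peak and is assigned to the neighbour *CG13738* (3L:13974040-13974231). Of the other annotated Hsc70 genes, *Hsc70-5*, which encodes the mitochondrial Hsp70, had a control peak of 0.51 at 461 bp and no ecd1 peak within 1000 bp. *Hsc70-2* had no peak of either genotype within 1000 bp. *Hsp110*, which encodes a nucleotide exchange factor of Hsp70, had an ecd1 peak of 0.74 at 367 bp only, and the authors' deposited table has a region of 0.77 on it as higher in ecd1 (3L:14036264-14036652).

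The stress-inducible Hsp70 genes were nearly bare of peaks. None of the 7 (*Hsp70Aa*, *Hsp70Ab*, *Hsp70Ba*, *Hsp70Bb*, *Hsp70Bbb*, *Hsp70Bc* and *Hsp68*) was overlapped by a peak of either genotype, and 1 of the 7 (14.3%) had one within 1000 bp, where 62.2% of the 13922 annotated protein-coding genes did. That 1 was *Hsp70Aa*, with an ecd1 peak of 0.68 at 600 bp (3R:11952850-11953563). The authors' deposited table has a region of 0.54 with the same ends as that peak as higher in ecd1 (FDR 0.00072). The share of all genes overlapped by a peak is not given here, so the lack of overlap stands without a comparison. *Hsp70Ab* (FBgn0013276, 3R:11958535-11960909) entered the gene tables through a peak 1533 bp away, near *aurA* and *CG3281*, with heights of 0.70 in control (3R:11962442-11964024) and 0.94 in ecd1 (3R:11962442-11963514). *Hsp68* had no peak within 5625 bp in ecd1 or 6058 bp in control. The Hsp70 copies at 87A and 87C are nearly identical in sequence, and how reads matching several copies were treated is not given in the sources used here. Values at these copies are therefore uncertain, and the part of such reads in the missing peaks was not tested.

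At 87C the regions called higher in control lay mostly away from the peaks. The 4 copies there span 46009 bp (3R:12465453-12511461), with the non-coding alphagamma-element between *Hsp70Ba* and the rest. A set of 3 low control peaks, of 0.38, 0.46 and 0.43, lies in that gap, away from the Hsp70 genes, and no ecd1 peak does. The authors' deposited table gives regions higher in control of 0.48 at 730 bp from *Hsp70Ba* (3R:12468506-12469960) and of 0.48 over the left end of *Hsp70Bb* (3R:12505182-12506183). It also gives one of 0.37 listed for *Hsp70Bbb* at 2328 bp (3R:12499875-12500182, the authors' deposited table). None of these 3 regions touches a peak of either list. The fourth region higher in control in the row, of 0.44 in the authors' deposited table (3R:12475795-12478436), lies over the alphagamma-element, with 2378 bp on 2 of the low control peaks and none on an ecd1 peak. No region higher in ecd1 overlaps the 87C row in the authors' deposited table; the nearest on the right, of 0.73, starts 774 bp beyond *Hsp70Bc* (3R:12512235-12514235) and is listed for *Octbeta3R*.

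**Figure D4:**
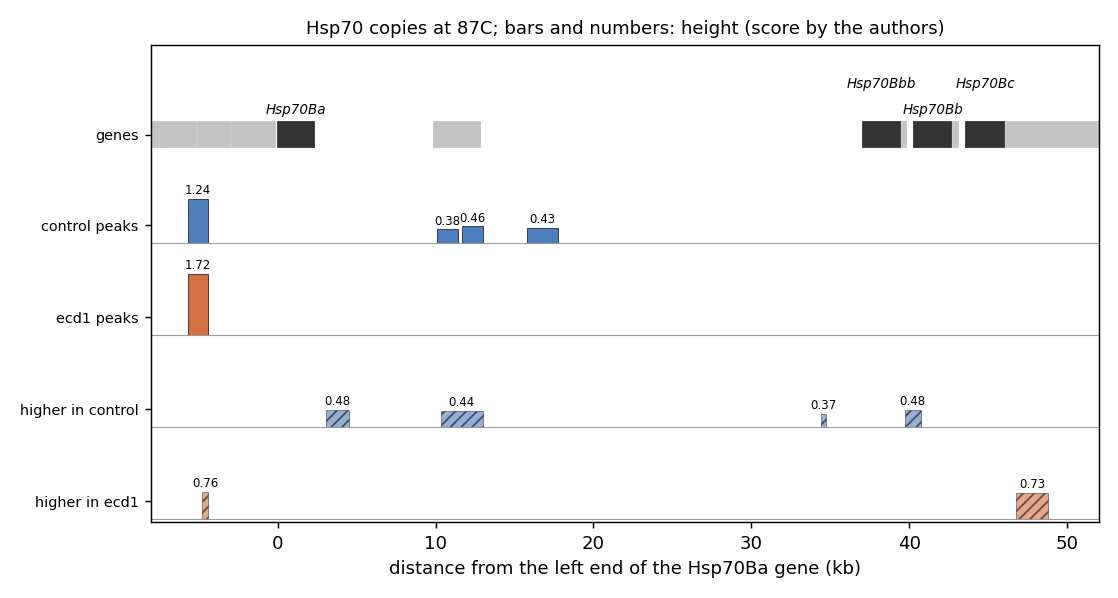
Map of the Hsp70 copies at 87C: the x axis gives the distance in kb from the left end of *Hsp70Ba*, dark boxes the 4 Hsp70 copies and grey boxes other genes, filled bars the peaks and hatched bars the regions called higher in a genotype, with bar height and number giving the authors' height. No peak lies on a dark box; the control peaks of 0.38 to 0.46 lie in the gap, and regions of 0.48, 0.44, 0.37 and 0.48 are called higher in control.

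Among the J-domain genes that match the name pattern, whose products deliver substrates to Hsp70, *DnaJ-1* (FBgn0263106, 3L:5750029-5752189) was the single listed member. Its peak had the same ends in both lists (3L:5751126-5752752), covered 49.2% of the gene and was 1.35 high in control and 1.61 in ecd1. The difference of 0.26 is near the median of 0.28 over all peaks with the same ends. The authors' deposited table gives 184 bp at the end of this peak that lies inside the gene, of height 0.69, as higher in ecd1 (3L:5751126-5751309, FDR 0.00059). *DnaJ-60* had an ecd1 peak of 0.38 at 912 bp, and *DnaJ-H* and *Hsc20*, whose product serves iron-sulfur cluster assembly, had none within 1000 bp.

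Of the Hsp60 genes, *Hsp60B* (FBgn0011244, 2L:728362-730564), known for its role in spermatids, was listed in both genotypes, with heights of 0.69 in control (2L:727091-728434) and 0.89 in ecd1 (2L:726952-728434). These peaks covered 73 bp at the left end of the gene, or 3.31% of it. *Hsp60A*, which encodes the general mitochondrial chaperonin, had no peak within 16135 bp in either genotype. *Hsp60C* and *Hsp60D* also had none within 1000 bp. Hence 1 of 4 Hsp60 genes was near a peak.

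The cytosolic chaperonin CCT, which folds actin and tubulin, is built of 8 kinds of subunit, and all 8 genes had peaks of both genotypes within 1000 bp. The share over all annotated protein-coding genes was 46.5%. The gene tables carry older symbols: *Tcp-1eta* is *CCT7* and *Tcp-1zeta* is *CCT6*, 4 others are listed as *CG7033* (*CCT2*), *CG5525* (*CCT4*), *Cct5* (*CCT5*) and *CG8258* (*CCT8*), and *CCT1* and *CCT3* are not listed. With a peak required to overlap the gene in both genotypes, 5 of the 8 remained. The share of all genes that overlap peaks of both genotypes is not given here, so these 5 stand without a comparison. The 28 other annotated genes that match the name pattern had peaks of both genotypes within 1000 bp in 9 cases (32.1%) and of either in 15 (53.6%). The count over CCT genes and its windows, that of 1000 bp included, were chosen after seeing the data, as were those for the inducible Hsp70 genes.

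The tallest peak within 1000 bp was taller in the ecd1 list for all 8 CCT genes, as it was for 82.4% of the 6473 protein-coding genes with peaks of both genotypes in that window. The median was 0.98 in control and 1.48 in ecd1, where protein-coding genes with such a peak had medians of 0.99 and 1.25. The heights in control were 1.38 for *CCT1*, 0.84 for *CCT2*, 1.22 for *CCT3* and 0.76 for *CCT4*. They were 1.12 for *CCT5*, 0.49 for *CCT6*, 0.75 for *CCT7* and 1.31 for *CCT8*. In ecd1 the heights were 1.82 for *CCT1*, 1.5 for *CCT2*, 1.52 for *CCT3*, 1.57 for *CCT4*, 1.46 for *CCT5*, 0.96 for *CCT6*, 0.96 for *CCT7* and 1.46 for *CCT8*. *CCT6* and *CCT7* were the lowest in both lists, and they are the subunits whose older names made them members.

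**Figure D5:**
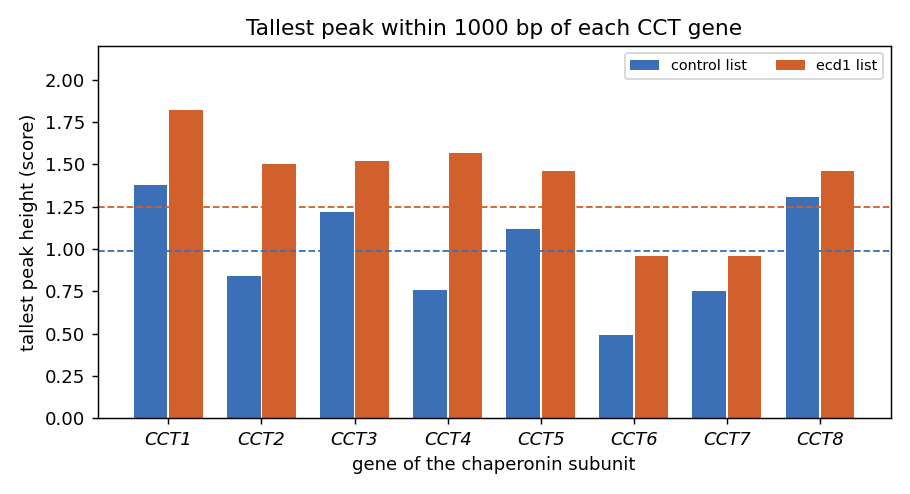
Tallest peak within 1000 bp of each of the 8 CCT genes (x axis) in the control and ecd1 lists (bars; y axis, the authors' height); dashed lines are the medians over protein-coding genes with such a peak (0.99 in control, 1.25 in ecd1). The ecd1 bar is the taller at every gene, and *CCT6* and *CCT7* are lowest in both lists.

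Regions called higher in ecd1 lay within 1000 bp of 5 of the 8 CCT genes (62.5%) and regions higher in control of 2 (25%). Of the 8655 protein-coding genes with a peak of either genotype in that window, 56.2% and 21.2% had them, so the CCT counts lay near those of genes in general. In the authors' deposited table the 7 regions higher in ecd1 include 2 at *CCT2*, of 1.09 at 442 bp (X:9093268-9094932) and of 0.55 over its left end (X:9088400-9089826). Others in the authors' deposited table had heights of 0.90 over the right part of *CCT4* (2L:12691639-12693105) and 0.84 at 392 bp from *CCT3* (3R:16650370-16651072). The authors' deposited table gives 0.69 over the left end of *CCT5* (2R:12173410-12175094), 0.72 at 73 bp from it (2R:12177589-12178101) and 0.45 at 395 bp from *CCT1* (3R:22488148-22488710). *CCT5* is also listed in the authors' deposited table of regions higher in control, with 0.40 at 2112 bp from the gene (2R:12172575-12172690). At *CCT4* the control peak of 0.76 was 525 bp wide and the ecd1 peak of 1.57 from the same start was 1467 bp wide.

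*Tcp-1zeta* (*CCT6*, FBgn0027329, X:15746648-15748971) had its listed region in the other direction. Control peaks of 0.45 (X:15748189-15748648) and 0.49 (X:15748704-15750414) lay on its right end, and the ecd1 list has a peak of 0.96 at 643 bp outside the gene (X:15749614-15750430). That ecd1 peak starts inside the control peak of 0.49, ends just beyond it and has the larger height. The listing of *Tcp-1zeta* in control discs alone is therefore no absence of an ecd1 peak beside the gene. From the first control peak to the start of the ecd1 peak, the authors' deposited table has a stretch of 0.60 as higher in control (X:15748585-15749614). *Tcp-1eta* (*CCT7*, FBgn0037632, 3R:8801564-8806234) had a peak with the same ends in both lists (3R:8805107-8806856), of 0.68 in control and 0.86 in ecd1. At 837 bp from *CCT7* the authors' deposited table has 72 bp of height 0.51 as higher in control (3R:8807071-8807142).

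Over the 36 annotated genes, 23 (63.9%) had a peak of either genotype within 1000 bp, against 62.2% of protein-coding genes, and 17 (47.2%) had peaks of both, against 46.5%. The families, which hold only genes that match the name pattern, thus lay on either side of a total that matched genes in general. The 8 CCT genes and 5 of 6 small heat shock genes had peaks of both genotypes. None of the 7 inducible Hsp70 genes, 1 of 4 Hsp60 genes, 1 of 4 J-domain genes and 1 of 4 Hsc70 genes did. J-domain and small heat shock genes with other symbols are not counted in these shares, which are therefore set by naming. Genes of a row share peaks, so the 5 small heat shock genes rest on 2 intervals. Of the 7 inducible Hsp70 genes, 2 are the pair at 87A and 4 are the copies at 87C. These copies are nearly identical in sequence, so they are not independent of each other and their values are uncertain.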

How the data were processed

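Wing disc DNA was sequenced as paired 50 bp reads of methylation-specific PCR products, per the labels' protocols. The build is BDGP6, per the submitters' processing notes; aligner, peak caller and use of the Dam-only libraries were not given in the sources used here. Peak height is the authors' deposited score, of unstated scale (0.23 to 3.89), and the FDR deposited by the authors, a q-value, is below 0.01 throughout. Replicates are pooled in every file, so depth and replicate spread are unknown. The ecd1 Dam-only library is described as Dam-RNase H1 in 1 label and was grouped by its title.

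Genes were matched by symbol, or by synonym on the same arm, to the RefSeq gene table of Release 6 plus ISO1 MT (10449 of 10500 identifiers, 99.5%), which has spans but no strand or exons. Peaks were counted over spans or within 1000 bp; overlap meant at least 1 bp. Shares are set beside those over all genes, and no test was run. The members, gene lists and named genes (every member, by family) were chosen with earlier results of these data known. A partner list of 66 names gave 38 genes outside the name pattern; 14 names were unmatched, ambiguous or matched another kind of gene. Promoter sequences were not analysed here. Computation used Python 3.11.15 with pandas 2.3.3.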

Additional observations from a re-analysis of the deposited data

How the results depend on the processing

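No paired analysis was possible because no file holds a value per library; leaving out replicates was not possible for the same reason, and the planned search for heat shock elements was not run. Of 12 members, requiring a height of at least 1 left 6 with a control peak, 5 with an ecd1 peak and 5 with both, and 1 with a region higher in ecd1 and 0 with one higher in control. An FDR under 0.001 left 3 and 1 such members. The shares of all genes at these height and FDR cuts are not given here, so these counts stand without a comparison. Over all genes, the upper quartile of height was 0.95 for regions higher in ecd1 and 0.68 for regions higher in control, both below 1. Membership by RefSeq synonym gave 16 genes, 8 of them with a region higher in ecd1, where 57.1% of all genes with a listed peak had one. The median control height moved from 1.04 to 0.99 with each peak counted once, 1.10 for the tallest peak within 1000 bp, 1.10 for peaks overlapping their gene and 1.17 for genes listed in both genotypes. The corresponding ecd1 medians, from 1.27, were 0.94, 1.33, 1.61 and 1.61, and with each peak counted once the median over all distinct listed peaks was 1.18. For the tallest peak within 1000 bp, protein-coding genes with such a peak had medians of 0.99 in control and 1.25 in ecd1. For peaks overlapping their gene and for genes listed in both genotypes, no median over all genes is given here. Counts by family and their windows, that of 1000 bp included, were chosen after seeing the data and gave 5 CCT genes with overlapping peaks of both genotypes (8 within 1000 or 2000 bp), and 0 inducible Hsp70 genes with an overlapping peak and 2 with one within 2000 bp, against 1 within 1000 bp. The other 22 of 41 alternatives kept their count within 1.5 times. For overlap and for 2000 bp, no share over all genes is given beside the family counts. The unknown depth limits every absence of a peak.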

Other observations

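Partners of the chaperones formed a second list of 38 genes, of which 29 (76.3%) had a peak of either genotype within 1000 bp and 20 (52.6%) had peaks of both, where the shares over protein-coding genes were 62.2% and 46.5%. Of the 29, 18 (62.1%) had a region higher in ecd1 within 1000 bp and 6 (20.7%) a region higher in control, against 56.2% and 21.2% of protein-coding genes with a peak. *lncRNA:Hsromega*, the heat-inducible non-coding gene of the nuclear omega speckles, had a tallest peak of 0.66 in control and 1.66 in ecd1. A stretch of 1.22 is higher in ecd1 there in the authors' deposited table. *stv*, which encodes the BAG-domain partner of Hsp70, had 1.37 in control and 1.32 in ecd1. Elsewhere over *stv*, an ecd1 peak of 0.82 has no control peak over it (3L:13480634-13484024). Between the same ends 0.75 is called higher in ecd1 by the authors' deposited table. *Sgt* had a first peak of 1.55 and 1.80 and a second of 0.43 and 1.59, and the authors' deposited table has a region of 1.20 as higher in ecd1 at the second. *Trap1*, the mitochondrial Hsp90 gene, had peaks at both ends: 1.45 in control and 1.07 in ecd1 at the left, and 1.24 and 1.80 at the right, where the authors' deposited table has 0.65 as higher in ecd1. *Gp93*, the Hsp90 gene of the endoplasmic reticulum, had a control peak of 0.63 and no ecd1 peak within 1000 bp, and the authors' deposited table gives 0.70 as higher in control. *Stip1*, whose product links Hsp70 to Hsp90, had 0.41 and 0.44, while the authors' deposited table has a region of 0.54 over another stretch of the gene as higher in control (2L:294346-295716).

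Prefoldin delivers unfolded chains to CCT. *Pfdn5* and *CCT1* are neighbours, and the peak between them (3R:22488148-22488874, 1.38 in control and 1.82 in ecd1) lies 38 bp from *Pfdn5* and 231 bp from *CCT1*.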
